A study of Mus musculus with 20 samples.

Results

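The 4 Hox gene clusters of the mouse were followed through the first cell cycle after fertilisation, as 5929 CpG positions with 5 or more reads in at least 1 library, of 2262552 such positions in the whole data set. They were chosen by mm9 windows alone: HoxA on chromosome 6 from 52102000 to 52218000 (1585 positions), HoxB on chromosome 11 from 96050000 to 96232000 (1446), HoxC on chromosome 15 from 102745000 to 102872000 (1167) and HoxD on chromosome 2 from 74490000 to 74610000 (1731). The positions fell in 1198 tiles of 100 bp, of 823580 in all, and 896 tiles had at least 2 such positions and 10 calls in 1 or more libraries. Levels are the percent of calls that were methylated. Bisulfite reads 5-methylcytosine and 5-hydroxymethylcytosine alike.

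The data set holds 20 libraries in 10 groups of 2 made by RRBS (reduced representation bisulfite sequencing), where a restriction enzyme releases fragments rich in CpGs for bisulfite sequencing. Sperm and oocytes are labelled WT and mock. Zygotes came from superovulated females of 7 to 10 weeks, either WT (f/f, so that the controls carry the floxed alleles) or CKO (Zp3-Cre, f/-, a Cre driven by an oocyte promoter), with sperm of C57BL/6J males, so the Tet3 deletion came through the egg. Tet3 oxidises 5-methylcytosine. Mock zygotes were compared with zygotes kept from 5 h after fertilisation in 3 µg/ml aphidicolin, which blocks DNA polymerase. Paternal and maternal pronuclei were isolated at 12 h, by size and by distance from the second polar body, and frozen at 13 h. The labels say that libraries typically started from about 20 pronuclei and took 21 PCR cycles. They do not say whether the 2 libraries of a group came from separate collections, so the spread may be technical.

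Hox genes encode homeodomain transcription factors that give cells their position along the body axis, and they lie in clusters in the order in which they act. Their CpG-rich DNA is known to be kept largely free of methylation and under Polycomb control in germ cells and early embryos. The first genes of a cluster, such as Hoxd1 and Hoxd3, act towards the head, and the last, such as Hoxd11 to Hoxd13, in the hind body and limbs.

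Promoters were located without converting coordinates: a RefSeq promoter sequence (GRCm38.p6) was placed where the spacing of its CpGs matched the observed positions at 1 offset only. Of 31 sequences for 29 genes, 10 were placed, 7 of them in HoxD, 2 in HoxA, 1 in HoxB and 0 in HoxC. The 3 printed here had the highest level of the 10 in any paternal pronuclear library (24.4%, 9.51% and 35.0%). Each gives the 250 bases before the start site on the plus strand, with the CpGs that were read in capitals.

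Hoxd11: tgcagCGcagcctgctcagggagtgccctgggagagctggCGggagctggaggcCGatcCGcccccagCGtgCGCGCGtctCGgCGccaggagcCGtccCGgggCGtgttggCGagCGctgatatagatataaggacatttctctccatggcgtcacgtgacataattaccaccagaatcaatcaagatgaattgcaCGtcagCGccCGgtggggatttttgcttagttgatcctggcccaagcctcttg

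Hoxd9: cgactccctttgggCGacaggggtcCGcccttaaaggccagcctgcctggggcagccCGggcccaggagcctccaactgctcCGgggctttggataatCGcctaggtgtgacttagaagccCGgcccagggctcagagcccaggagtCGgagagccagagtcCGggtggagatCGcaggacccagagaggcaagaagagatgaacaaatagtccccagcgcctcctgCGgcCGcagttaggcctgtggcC

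Hoxd1: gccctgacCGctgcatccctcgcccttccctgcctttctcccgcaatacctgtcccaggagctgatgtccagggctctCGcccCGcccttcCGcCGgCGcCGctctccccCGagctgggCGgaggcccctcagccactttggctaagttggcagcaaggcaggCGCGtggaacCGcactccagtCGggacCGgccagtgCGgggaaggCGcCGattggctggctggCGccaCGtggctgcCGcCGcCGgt

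Depth varied between libraries. All CpG calls numbered 22431861 to 68056783 per library, and those in the Hox windows 84352 to 211341. Of the Hox positions, 2874 to 4936 had 5 or more reads, with a median of 18 to 40 reads. Tiles genome-wide that are methylated only in sperm averaged 10.2% in CKO maternal mock pronuclei (9.39% and 10.9%) and 4.08% in WT ones. The chromosome Y share of calls was 0.00297% and 0.000296% in those CKO libraries and 0.000692% and 0.000198% in the WT ones. CKO maternal aphidicolin replicate 1 averaged 9.69% at the sperm-methylated tiles (chromosome Y 0.00163%) and replicate 2 5.98%. Tiles methylated only in oocytes averaged 12.3% in CKO paternal mock replicate 1 and 11.9% in CKO paternal aphidicolin replicate 1. The other paternal pronuclear libraries read 4.03% to 6.56%. Chromosome Y shares were 0.00752% and 0.00597% in these 2 CKO libraries and 0.0127% to 0.0219% in the others. Whether DNA of the other parent contributed to any library was not tested. All mock pronuclear files list chromosomes in sorted order and the aphidicolin and gamete files do not, so this difference in file handling cannot be told apart from treatment.

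Both gametes carried little methylation in the Hox clusters. Of the 627 Hox tiles measured in all 4 gamete libraries, 589 (93.9%) were at most 25% in sperm and in oocytes, against 49.2% of the 203569 tiles measured genome-wide. Sperm alone were methylated, at 75% or more with oocytes at 25% or less, in 14 tiles (2.23%, against 19.9% genome-wide). No Hox tile was methylated in oocytes alone or in both gametes, classes that held 2.94% and 16.8% of tiles genome-wide. The other 24 lay between.

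The few sperm-methylated tiles were unevenly spread, with 7 of 160 in HoxB, 5 of 132 in HoxC, 2 of 171 in HoxD and 0 of 164 in HoxA. Over the 3492 positions shared by the gamete libraries, HoxB averaged 5.79% and 5.83% in the sperm libraries and 0.401% and 0.728% in the oocyte libraries. HoxC averaged 4.85% and 4.8% in sperm and 2.04% and 2.13% in oocytes. HoxA was at 1.65% and 1.70% in sperm and 1.14% and 0.817% in oocytes, and HoxD at 1.74% and 2.03% against 0.626% and 0.597%. Over these positions sperm lay above oocytes in each of the 4 clusters with no overlap, by 2.34 points over the 4 clusters (3.34% ± 0.0703 against 1.00% ± 0.00356, SD, n = 2) where the genome differed by 13.3 points. Over the positions measured in all 20 libraries HoxC was the other way round, with 2.06% and 1.96% in sperm and 3.96% and 3.30% in oocytes (-1.62 points).

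The tile test, a quasi-binomial model fitted across all tiles with Benjamini-Hochberg adjustment, called a tile where the adjusted p was under 0.05 and the groups differed by 10 points or more. It called 37 of 627 Hox tiles higher in sperm (26.3% of all tiles tested genome-wide) and 4 lower (5.59% genome-wide). With 1000-bp tiles it called 34 of 233 higher (43.1%) and 2 lower (5.7%). HoxB and HoxC each held 12 of the 37, HoxD 8 and HoxA 5. All 4 tiles higher in oocytes were in HoxC.

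The largest difference was in HoxB, where the tile at 96093301 to 96093400 read 100% in both sperm libraries and 0% in both oocyte libraries (adjusted p = 0.0044, quasi-binomial test). Nearby HoxB tiles at 96092701 (97.4% and 99.2% in sperm) and 96092601 (95.5% and 97.4%) were at 0% in oocytes. The next largest were in HoxD, where the tiles at 74560001 (98.8% and 98.6%) and 74559301 (99.1% and 98.1%) were also at 0% in oocytes, and both lie between the placed starts of Hoxd3 and Hoxd1. In HoxC the largest differences were 89.9 points at 102799201, 81.1 at 102793101 and 80.1 at 102833601. HoxA had none as large, and its first was 62.7 points at 52103001 (66.7% and 58.8% in sperm, 0% in oocytes).

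The oocyte-methylated DNA of HoxC lay at the end of its window. The tile at 102857301 to 102857400 read 58.1% and 36.2% in oocytes and 0% in both sperm libraries (difference -47.1 points, adjusted p = 0.00723, quasi-binomial test). The tile at 102857501 read 32.7% and 25.6% in oocytes, and that at 102858201 read 12.3% and 41.7%. A further tile, at 102858501, read 40.4% and 32.3% in oocytes but also 34.8% and 23.9% in sperm, and was not called. Over the 4 Hox tiles above 25% in the oocyte mean, oocytes averaged 34.9% ± 1.35 (35.9% and 33.9%), and maternal pronuclei averaged 7.82% ± 1.28 (WT mock), 6.88% ± 1.94 (WT aphidicolin), 4.81% ± 1.57 (CKO mock) and 3.57% ± 0.459 (CKO aphidicolin, n = 2 in each). The mean of each of the 8 maternal libraries lay below both oocyte libraries, on 2 to 4 measured tiles, but single tiles did not all do so: WT mock replicate 1 read 34.9% at 102857501. These tiles were chosen on their oocyte values, so a lower level elsewhere is in part built in.

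**Figure D1:**
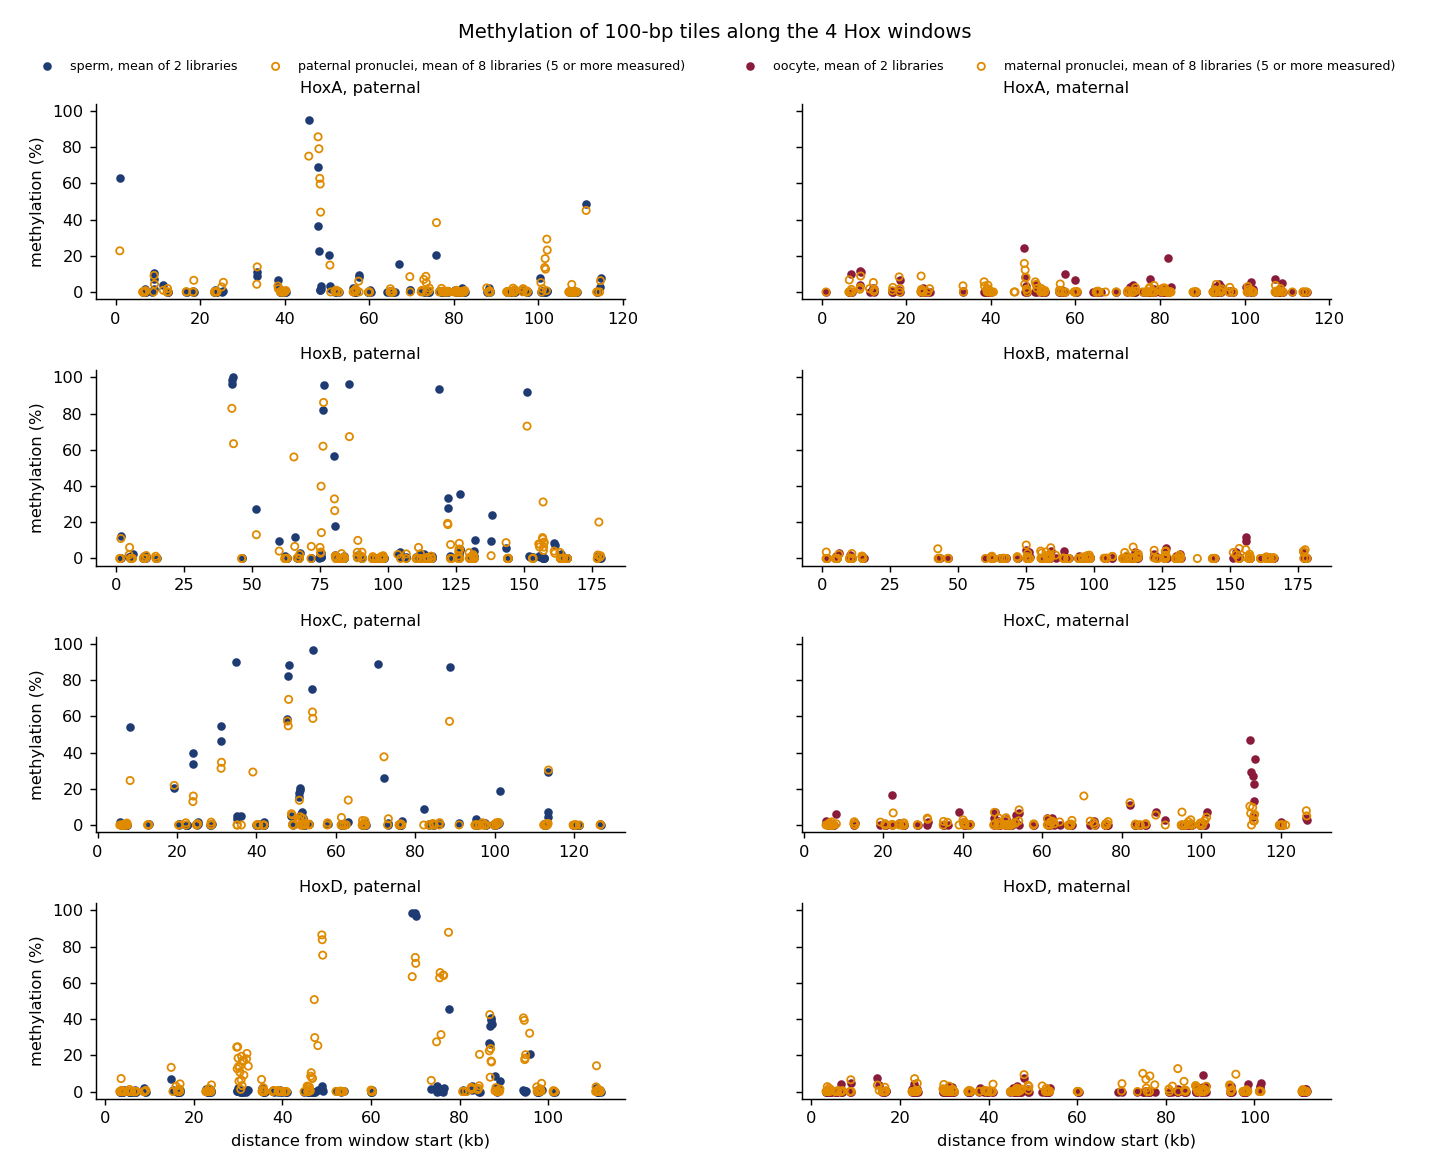
Methylation (%) of 100-bp tiles along each Hox window against distance from the window start (kb), with paternal chromosomes on the left and maternal on the right. Filled points are the mean of the 2 gamete libraries and open points the mean of the pronuclear libraries, for tiles measured in 5 or more of 8. Most tiles lie near 0, filled sperm points above 75% are most frequent in HoxB and HoxC, and in HoxD near 49 and 75 kb open points stand above 50% where sperm is near 0.

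At the 14 sperm-methylated Hox tiles, paternal levels after fertilisation lay below sperm in mock zygotes and nearer to sperm under aphidicolin. The sperm libraries averaged 92.7% and 91.3%. The WT mock libraries averaged 49.6% and 54.9%, and the WT aphidicolin libraries 92.1% and 76.0%. The CKO mock libraries averaged 53.8% and 63.0%, and the CKO aphidicolin libraries 73.3% and 81.9%. Both mock groups lay below both of their aphidicolin counterparts, and CKO mock overlapped WT mock. The libraries measured 8 to 14 of the tiles. These tiles were chosen on their sperm values, so a level below sperm is in part built in.

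The same tiles genome-wide (40522) averaged 95.6% in sperm. Mock pronuclei averaged 49.9% (WT) and 60.5% (CKO) there, and aphidicolin pronuclei 91.9% (WT) and 91.8% (CKO). Tile by tile, aphidicolin was higher than mock in 9 of 11 Hox tiles in WT (median difference 25.8 points, against 40.7 genome-wide) and in 10 of 13 in CKO (18.9, against 31.6). CKO mock was higher than WT mock in 9 of 14 (10.7, against 9.96). Neighbouring tiles share fragments, and no test was made over these tiles.

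Single runs varied widely between libraries. In HoxC the run at 102793001 to 102793200 read 0% and 11% in WT mock, 47.1% and 73.6% in CKO mock, and under aphidicolin 100% and 65.2% (WT) and 70.6% and 94.3% (CKO), so its WT mock and aphidicolin libraries did not overlap. The next HoxC run, 102799101 to 102799300, read 58.2% and 82.9% in WT mock and 85.4% and 50.0% in WT aphidicolin, which overlap, and the tile at 102833601 read 47.6% and 43.2% in WT mock. In HoxB the run at 96126201 to 96126500 read 16.2% and 87.2% in WT mock and 100% in all 4 aphidicolin libraries. The HoxB run at 96092601 to 96092800 read 100% and 26.7% in WT mock, and that at 96201201 read 100% and 50.0%. In HoxD the tile at 74559301 read 0% and 83.7% in WT mock, 100% in both WT aphidicolin libraries and 92.2% in CKO aphidicolin replicate 1. Other tiles went the other way in some libraries. At 74560001 in HoxD, CKO aphidicolin read 0% and 100% and CKO mock 69.8% and 100%. At 96093301 in HoxB, WT mock replicate 2 read 100%, WT aphidicolin replicate 2 77.7% and CKO aphidicolin 0% and 100%.

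A further 20 Hox tiles were between 25% and 75% in the sperm mean, with oocytes at 25% or less. These too were chosen on their sperm values, so a difference from sperm is in part built in. They averaged 42.9% ± 0.253 in sperm, 21.7% ± 6.83 in WT mock, 31.2% ± 13.3 in CKO mock, 45.8% ± 3.70 in WT aphidicolin and 42.9% ± 4.07 in CKO aphidicolin (SD, n = 2). WT mock lay below WT aphidicolin without overlap, while CKO mock at 21.7% and 40.6% reached the CKO aphidicolin values of 40.0% and 45.8%. In HoxD, 5 of these tiles lie together from 74576701 to 74577200, where each was called higher in sperm than in oocytes by 25.5 to 40.8 points.

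**Figure D2:**
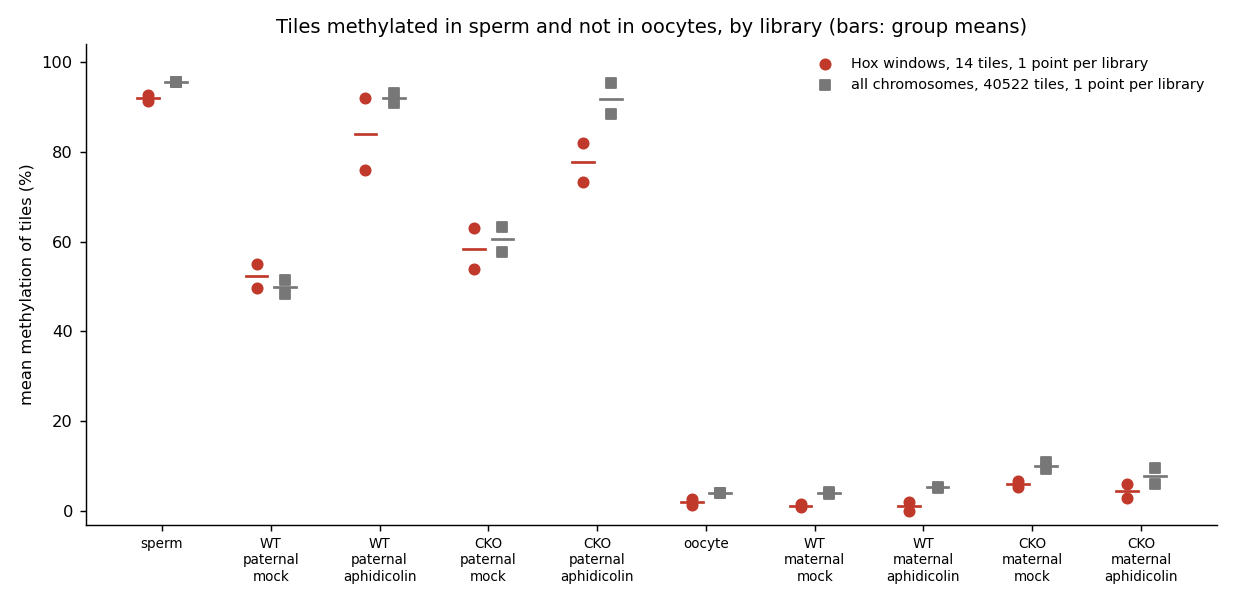
Mean methylation (%) of sperm-methylated tiles (75% or more in sperm, 25% or less in oocytes), 1 point per library and a bar at each group mean, for the 14 Hox tiles and all 40522 such tiles. Both sets lie near 50% in WT paternal mock pronuclei (52.3% and 49.9%) and higher under aphidicolin.

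In the other direction, a set of HoxD tiles was near 0 in sperm and methylated in paternal pronuclei. At the tile from 74565501 to 74565600, sperm read 0.119% and 0%, and the paternal pronuclei read 48.0% and 68.8% (WT mock), 49.0% and 72.3% (WT aphidicolin), 41.4% and 69.8% (CKO mock), and 67.6% and 85.7% (CKO aphidicolin). The next tile, to 74565700, read 0.324% and 0.144% in sperm and 33.8% to 100% in paternal pronuclei. Every paternal pronuclear library lay above both sperm libraries at both tiles, which had 70 to 1328 calls in these libraries. At the first tile oocytes read 0% and 0.608%. Maternal pronuclei there read 0% to 2.38%, except for 44.7% in CKO maternal mock replicate 2 (553 calls). At the second tile oocytes read 0% and 0.391%, and maternal pronuclei 0% to 9.61%, highest in the same library. Both tiles lie between the placed starts of Hoxd3 and Hoxd1.

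These 2 neighbouring tiles were the only Hox tiles of 256 tested that the paternal fit called, higher against sperm in all 4 groups. The share of all tiles called higher was 0.572% in WT mock, 0.249% in CKO mock, 0.195% in WT aphidicolin and 0.236% in CKO aphidicolin. The differences at the first and second tile were 58.4 and 58.1 points in WT mock (adjusted p = 1.61e-05 and 0.000575, quasi-binomial test), 55.5 and 63.9 in CKO mock (0.000848 and 0.000223), 60.6 and 59.9 in WT aphidicolin (0.00122 and 0.00432) and 76.6 and 79.9 in CKO aphidicolin (0.00702 and 0.000704). The 4 comparisons share the sperm libraries. The calls rest on few libraries: without sperm replicate 1, and likewise without sperm replicate 2, 1 tile stayed called in WT mock and neither in the other 3 groups. Fitted on the libraries of the 2 groups alone, both stayed called in CKO mock (adjusted p = 3.11e-06 and 3.33e-07) and neither in WT mock (0.084 and 0.103), WT aphidicolin (0.846 at both) or CKO aphidicolin (1 at both). With limma on arcsine square roots the first tile stayed called in the 4 comparisons and the second in none (adjusted p = 0.0886 to 0.226).

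No Hox tile was called lower than sperm, where the share genome-wide was 1.56% in WT mock, 0.0549% in CKO mock and 0 under aphidicolin. With tiles of 1000 bp, which hold more calls, the WT mock fit called 11 of 175 Hox tiles higher (2.36% of all tiles) and 3 lower (18.6%). It also called 9 higher (2.15%) and 1 lower (10.4%) in CKO mock, and 12 (1.51%) and 9 (1.53%) higher in WT and CKO aphidicolin, with 0 lower (0.0338% and 0.0199%).

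In HoxD, tiles beyond the called ones went the same way. Of 569 Hox tiles at most 5% in both sperm libraries, 19 (3.34%) averaged 25% or more over the paternal pronuclear libraries, against 2.09% genome-wide. This rule was chosen after the values were seen and is a description with no test. HoxD held 13 of its 162 such tiles (8.02%), HoxA 4 of 151 (2.65%), HoxB 2 of 146 (1.37%) and HoxC 0 of 110. Outside HoxD the shares thus lay near or below that of the genome. In 7 of the 19, every measured paternal library was at 25% or more (1.23% of the 569, against 0.333% genome-wide), and 6 of those were in HoxD. The tiles just inside the threshold averaged 25.4% and 29.2%, and those just outside 24.7% and 24.5%, at 74519901 and 74519701 in HoxD. The fit needed a value in all 10 paternal libraries. Of the 19, those at 74538001 and 74566401 in HoxD, 52150301 in HoxA and 96125501 in HoxB were tested and not called. Apart from these and the 2 called tiles, the 19 were not tested, including every tile from 74538901 to 74539200.

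The strongest run was in HoxD from 74538901 to 74539200, with its midpoint 3.23 kb downstream of the placed start of Hoxd9. It read 1.44% and 1.80% in sperm, 96.5% and 86.9% in WT mock, 85.7% and 73% in CKO mock, 100% and 84.5% in WT aphidicolin and 68.8% and 67.1% in CKO aphidicolin. These are averages over the tiles each library measured. All 8 paternal averages were 67.1% or more, lowest in CKO aphidicolin, but the order depended on the tile. At 74539001 WT mock replicate 2 (63.9%) lay below both CKO aphidicolin libraries (68.8% and 88.0%), and at 74539101 values went down to 50.0%. Oocytes averaged 0.866% and 0% over the run and maternal pronuclei 0% to 8.02%. A single tile reached 24.1% in CKO maternal mock replicate 1, at 74538901. The first tile of this run, at 74538901 to 74539000, had the largest WT mock difference from sperm of any HoxD tile with non-overlapping libraries, 93.7 points on 123 to 187 calls.

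The HoxD run from 74565501 to 74566500, which contains the 2 called tiles, read 47.9% to 85.3% in paternal pronuclei. Maternal pronuclei read 0% to 2.17% there, except for 21.5% in CKO maternal mock replicate 2, which read 53.4% at 74566401. Another HoxD run, at 74584401 to 74584700, read 17.6% to 63.8% and has its midpoint 16.5 kb upstream of the placed start of Hoxd1. In HoxA the run at 52150301 to 52150600 read 2.08% and 0.406% in sperm and 17.9% to 79.5% in paternal pronuclei. Its midpoint is 8.22 kb downstream of the placed start of Hoxa6, next to tiles that sperm methylates (76.7% and 61.1% at 52149901). The single tiles were scattered: 52204001 in HoxA ranged from 0% to 100% between paternal libraries, 96125501 in HoxB from 4.43% to 100% and 96207101 in HoxB from 0% to 50.9%.

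The 19 tiles were chosen as low in sperm and higher on average in paternal pronuclei, so that difference is built in. A higher level in paternal than in maternal pronuclei is in part built in too. Over the 19 tiles, sperm averaged 0.762% and 0.873%. Paternal pronuclei averaged 43.9% and 49.4% in WT mock, 48.5% and 42.6% in CKO mock, 62.8% and 67.1% in WT aphidicolin and 50.8% and 57.1% in CKO aphidicolin. The aphidicolin means lay above the mock means in both genotypes, but on different tiles, since libraries measured 13 to 19 of them. Tile by tile, aphidicolin was higher in 14 and lower in 3 of 19 in WT, and higher in 9 and lower in 8 of the 17 measured in both CKO groups. The maternal counterparts averaged 0.0748% and 0.381% in WT mock and 0.0353% and 0.175% in WT aphidicolin, while the CKO libraries read 3.96% and 10.9% (mock) and 5.67% and 0.386% (aphidicolin). By the same rule on oocytes, 0 of 546 Hox tiles qualified in maternal pronuclei, against 0.419% genome-wide.

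**Figure D3:**
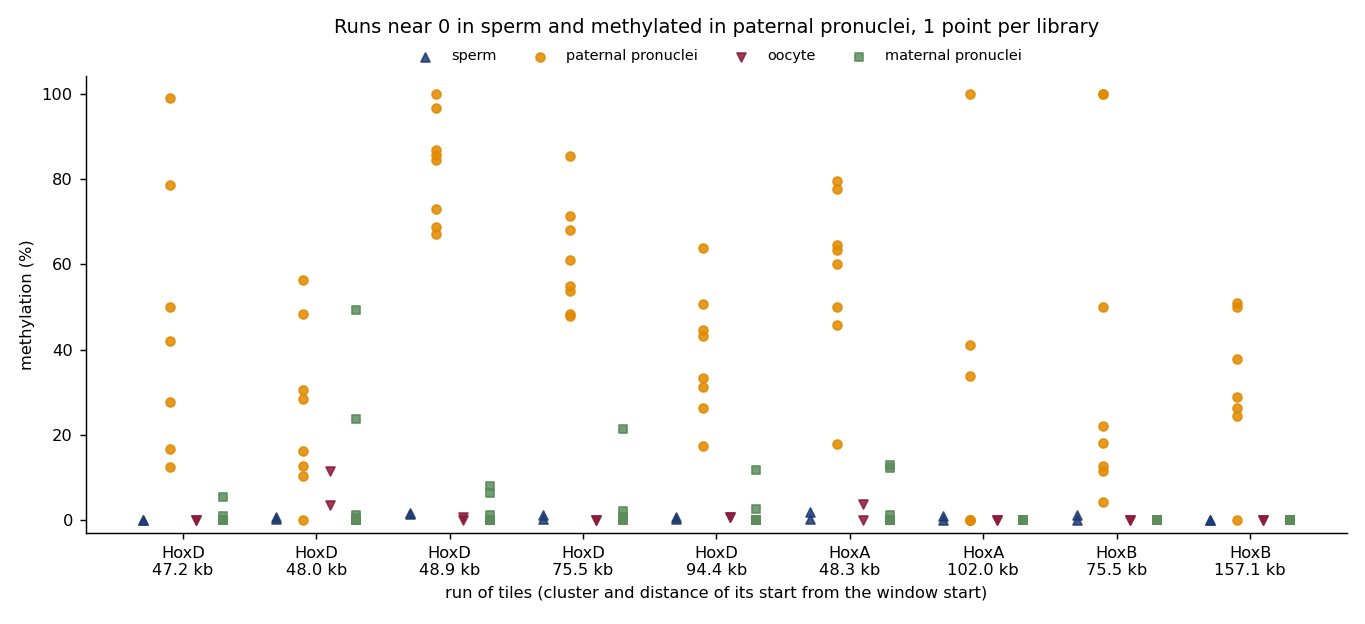
Methylation (%) of the 9 runs formed by the 19 tiles, by cluster and distance of the run start from the window start, 1 point per library for sperm, paternal pronuclei, oocytes and maternal pronuclei. Sperm and oocytes lie near 0 in every run except an oocyte library at 11.7% in the HoxD run at 48.0 kb, while paternal pronuclei reach 67.1% to 100% in the HoxD run at 48.9 kb.

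The 589 Hox tiles low in both gametes stayed low on average. They averaged 1.08% and 1.18% in sperm, 3.04% and 3.68% in WT mock, 3.46% and 3.83% in CKO mock, 5.02% and 4.00% in WT aphidicolin and 3.60% and 3.90% in CKO aphidicolin, on 433 to 589 measured tiles. Every paternal library lay above both sperm libraries. The same class genome-wide averaged 1.22% in sperm and 2.39% to 2.81% in the paternal groups. On the maternal side the Hox tiles averaged 0.819% in oocytes, 0.386% in WT mock and 0.640% in WT aphidicolin, and 1.40% and 1.20% in the CKO groups.

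The placed promoters read at most 1.81% in the gamete libraries and at most 2.82% in the maternal ones. In paternal pronuclei 5 of the 10 exceeded 2.82% in at least 1 library: Hoxd11, Hoxd9, Hoxd1, Hoxd3 and Hoxa6. That cut is the highest maternal value of these same promoters, and promoters outside the windows were not placed. Hoxd11, which acts in limb patterning, read 0.221% and 0.253% in sperm, and 2.41% and 20.1% in WT mock, 5.62% and 1.15% in CKO mock, 16.3% and 4.62% in WT aphidicolin and 24.4% and 6.65% in CKO aphidicolin. All 8 paternal libraries lay above sperm at this promoter, and none of the maternal libraries exceeded 2.40%. Its promoter sequence is the first of the 3 printed above, and tiles just upstream were the ones just under the 25% threshold.

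Hoxd9 and Hoxd1, the other printed promoters, differed between libraries of a group. Hoxd9 read 9.51% in WT aphidicolin replicate 1, 4.98% and 6.26% in CKO aphidicolin and 2.63% or less elsewhere. Hoxd1 read 16.1% in WT mock replicate 2, 35.0% in CKO aphidicolin replicate 2 and 0% in the other 6 paternal libraries. Hoxd13, Hoxd12, Hoxd10 and the antisense transcripts Hoxa11os and Hoxb3os stayed below 2% in paternal pronuclei, Hoxa6 at or below 3.11%, and Hoxd3 at 0% in all measured but CKO aphidicolin replicate 1 (6.44%). Hoxd3 was placed on 10 matched positions, and none of its CpGs before the start site counted as read.

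Whole-cluster means after fertilisation depended on the cluster and on the positions averaged. Over the 757 positions shared by the sperm and paternal libraries, the 4 clusters averaged 2.20% ± 0.0438 in sperm and 2.24% ± 0.142 in WT mock, which overlap, while the genome fell from 17.8% to 11.5%. HoxC averaged 4.65% and 4.45% in sperm and 0.468% and 2.16% in WT mock. HoxD averaged 1.17% and 1.60% in sperm and 3.10% and 3.12% in WT mock. HoxA averaged 1.19% and 1.13% in sperm and 2.91% and 1.88% in WT mock, and HoxB overlapped. Thus HoxC was lower and HoxA and HoxD higher without overlap. Over the 270 positions measured in all 20 libraries, the 4 clusters averaged 2.54% and 2.72% in sperm and 1.58% and 1.16% in WT mock, lower without overlap (-1.26 points), where the genome averaged 19.3% and 12.4%. The HoxA and HoxD differences changed sign there (-0.588 and -1.04 points), and the HoxA libraries overlapped.

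Paternal means were higher under aphidicolin in HoxB and HoxC of both genotypes, with no overlap between libraries. Against mock, HoxB was higher by 1.23 points in WT (single-library differences 0.383 to 2.08) and by 3.13 in CKO (2.60 to 3.66). HoxC was higher by 1.71 in WT (0.668 to 2.75) and by 2.22 in CKO (1.39 to 3.04). HoxA overlapped in both genotypes, and HoxD overlapped in WT and was higher by 1.15 in CKO (0.0392 to 2.25). Across the 4 clusters the difference was 0.800 points in WT and 1.86 in CKO, against 6.80 and 5.15 over the genome. With at least 10 reads a position, the HoxB difference in WT was -0.114.

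Tet3 CKO and WT mock paternal pronuclei overlapped over the 4 clusters (difference -0.144 points, against 2.17 over the genome). HoxC was higher in CKO by 1.44 (0.0346 to 2.85) and HoxB differed by -0.859 (-1.32 to -0.396). Under aphidicolin, CKO was higher in HoxC by 1.95 (1.49 to 2.41) and in HoxB by 1.04 (0.121 to 1.96), and overlapped in HoxA and HoxD. With tiles as the unit the HoxB difference was -0.608 and that of the 4 clusters -0.15, against 0.922 over positions. No Hox tile was called by treatment or genotype in the paternal fit, after Benjamini-Hochberg adjustment of the quasi-binomial test. Genome-wide, WT aphidicolin was called higher than WT mock in 0.241% of tiles and lower in 0.00162%, and CKO aphidicolin higher than CKO mock in 0.0178% and lower in 0. CKO mock was called higher than WT mock in 0.0291% and lower in 0.00162%, and 0 tiles differed between the genotypes under aphidicolin. At an unadjusted p under 0.05, 3 to 7 Hox tiles passed in these 4 comparisons, and 6 to 10 with limma on arcsine square roots, where 0 passed after adjustment. The share of all tiles passing that unadjusted cut was not counted. With 1000-bp tiles, 4 Hox tiles were called higher under aphidicolin in WT (10.6% of all tiles, 0.175% lower), 2 in CKO (10.4%, 0.199% lower) and 1 in CKO over WT aphidicolin (0.0736%, 0.0318% lower).

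**Figure D4:**
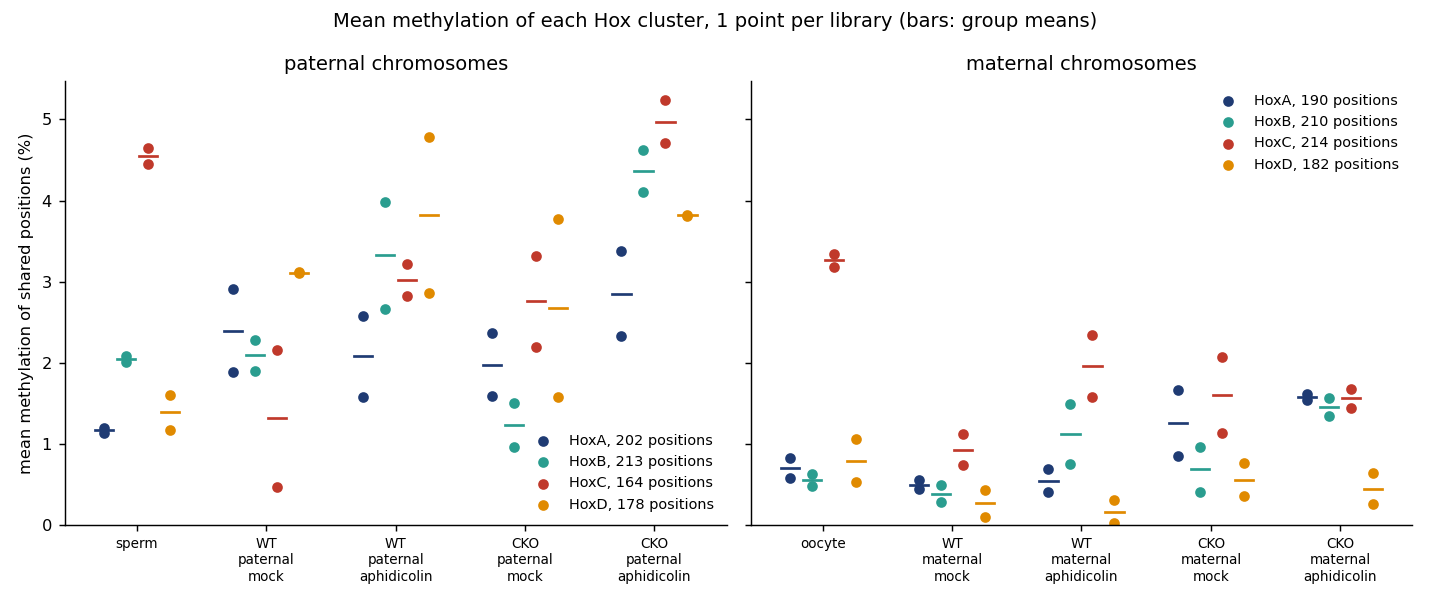
Mean methylation (%) of each Hox cluster over the positions shared by a parent's 10 libraries, 1 point per library and a bar at each group mean, from 0. HoxC is the highest cluster in sperm and oocytes, is lower in WT mock pronuclei of both parents, and the maternal values of the other clusters stay below 2%.

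On the maternal side WT mock was lower than oocytes, most of all in HoxC. Over 796 shared positions the 4 clusters averaged 1.46% and 1.28% in oocytes and 0.400% and 0.656% in WT mock, a difference of -0.841 points (genome -2.56). HoxC averaged 3.34% and 3.18% in oocytes and 0.732% and 1.11% in WT mock. HoxC was the only cluster with an oocyte mean over 1%. HoxA and HoxD were lower in WT mock by smaller amounts without overlap, -0.205 and -0.524 points, and HoxB overlapped. CKO mock was also lower in HoxC, by -1.66 points (-2.20 to -1.12), but higher than oocytes in HoxA by 0.558 (0.0211 to 1.1), and overlapped in HoxB and HoxD. In HoxC the WT maternal aphidicolin libraries, at 2.34% and 1.58%, lay above the WT mock libraries, while the CKO ones overlapped. Over the positions measured in all 20 libraries the WT difference in HoxC changed sign (-0.266 points).

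CKO maternal mock pronuclei were higher than WT mock by 0.509 points over the 4 clusters (0.186 to 0.833). HoxA was higher by 0.763 (0.299 to 1.23) and HoxC by 0.676 (0.0217 to 1.33), and HoxB and HoxD overlapped. Under aphidicolin HoxA was higher in CKO by 1.03 (0.854 to 1.22), HoxB, HoxC (-0.401) and HoxD overlapped, and so did the 4 clusters together (0.290, from -0.0694 to 0.649). The maternal fit called 0 of 281 Hox tiles in 8 comparisons after Benjamini-Hochberg adjustment of the quasi-binomial test. The shares of all tiles called higher and lower against oocytes were 0.00136% and 0.019% in WT mock, 0.00407% and 0.0149% in CKO mock, 0.00679% and 0.0136% in WT aphidicolin, and 0.00271% for both in CKO aphidicolin. Aphidicolin against mock gave 0.0285% and 0.00136% in WT and 0.0149% and 0.00271% in CKO, and CKO against WT gave 0.00136% and 0.00271% in mock and 0.00271% and 0.00679% under aphidicolin. At an unadjusted p under 0.05, 0 to 2 Hox tiles passed, and 4 to 19 with limma on arcsine square roots, where 0 passed after adjustment. The share of all tiles passing the unadjusted cut was not counted here either. With 1000-bp tiles, 1 of 182 Hox tiles was called higher in CKO aphidicolin than in CKO mock (0.317% of all tiles, 0.0498% lower). Single tiles were hard to call in the fits with pronuclei. In simulated data the maternal fit recovered 6.5% of tiles changed by 60 points, the paternal fit 32% and the gamete fit 96%.

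Tiles apart, the largest maternal differences between WT mock and oocytes with non-overlapping libraries were small outside HoxC. In HoxC the tile at 102858501 read 40.4% and 32.3% in oocytes and 0% in both WT mock libraries. In HoxA (52111101) and HoxD (74578401) WT mock read 0% where oocytes read 7.62% and 15.4%, and 6.52% and 12.1%. In HoxB (96132401) oocytes read 0% and WT mock 15.9% and 5.79%. Non-overlap of the 2 groups held for 33 of 574 Hox tiles lower in WT mock (14.9% of tiles genome-wide) and 7 higher (3.17%). The paternal counterparts were 118 of 489 Hox tiles lower (37.6% genome-wide) and 23 higher (4.31%), and 14 of the 23 were in HoxD. The largest paternal differences were 93.7 points in HoxD and 82.0 in HoxA (52150301), both higher, and -71.0 in HoxC (102793001) and -44.6 in HoxB (96126201), both lower.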

How the data were processed

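The 20 libraries were grouped and numbered from the labels. The submitters' processing notes name mm9, Bismark 0.10.1 and Trim Galore. The deposited files have no header and give per position the counts of methylated and unmethylated calls and a percent, both deposited as raw values. Read filters and duplicate handling: not given in the sources used here. PCR reads without molecular identifiers are not independent molecules, so depths limit counting error only. Members, lists and rules were chosen with earlier results of these data known. Positions needed 5 reads, and tiles 2 positions and 10 calls in each library of a fit (61904 paternal, 73688 maternal, 203569 gamete tiles). The quasi-binomial model had 1 level per group, with dispersion shrunk by limma 3.58.1 squeezeVar and floored at 1 afterwards. In simulated data of 200 changed tiles it called 64 (paternal), 13 (maternal) and 192 (gamete), with 0, 0 and 38 unchanged tiles called. The simulated gamete calls thus held more false calls than the threshold states. Far more gamete tiles were called in the data, so the false share there may differ and was not measured. Within a parent, replicate numbers did not pair libraries (correlations -0.0347 to 0.0461 paternal, -0.04 to 0.0152 maternal). Pairing of paternal with maternal libraries was not examined. Named tiles were the methylated runs, called tiles, largest gamete differences and largest non-overlapping WT mock differences. The promoters of Hoxa11os and Hoxb3os were added after the data were seen. No mm9 genome or annotation was used. Versions: Python 3.11.15, numpy 2.4.6.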

Additional observations from a re-analysis of the deposited data

Results flagged for a closer look

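Effects of opposite sign, with every pair of libraries on 1 side in each, appeared in 3 cluster means, and none of these differences was tested. In HoxB, CKO mock minus WT mock paternal pronuclei was -0.859 points and CKO minus WT under aphidicolin 1.04 points. With tiles as the unit the 2 values were -0.00028 and -0.608, no longer opposite. In HoxA, WT mock minus gamete was 1.23 points on the paternal side and -0.205 on the maternal side. In HoxD the same 2 values were 1.72 and -0.524 points. Over the positions measured in all 20 libraries the paternal values changed sign, to -0.588 in HoxA and -1.04 in HoxD. Both WT mock means then lay below the gamete mean, but not without overlap. Paternal HoxA libraries overlapped (2.18% and 2.22% in sperm, 2.62% and 0.601% in WT mock). So did maternal HoxD libraries (1.43% and 0.482% in oocytes, 0% and 0.505% in WT mock).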

How the results depend on the processing

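All 4 fits against sperm rested on few libraries. Leaving out 1 library at a time, the Hox tiles called ranged from 1 to 2 (WT mock), 0 to 2 (CKO mock), 0 to 3 (WT aphidicolin) and 0 to 3 (CKO aphidicolin), and from 29 to 55 in the gamete fit. The shares of all tiles called against sperm were 0.0323% to 1.72%, 0.0113% to 0.191%, 0.00485% to 0.128% and 0.00646% to 0.352%, in the same order. With only the 2 groups' libraries the Hox tiles called were 0, 5, 0 and 0 (0%, 4.25%, 0% and 0% of all tiles). With limma on arcsine square roots WT aphidicolin had 1 (0.625% of all tiles). With 1000-bp tiles the counts against sperm were 14, 10, 12 and 9 (21.0%, 12.6%, 1.54% and 1.55% of all tiles). Against mock they were 4 for WT aphidicolin and 2 for CKO aphidicolin. CKO against WT aphidicolin had 1, and maternal CKO aphidicolin against mock 1. Wider tiles pool more calls. The replicate block depended on how its residual degrees of freedom were counted, and 3 counts were tried in turn, the later ones after the planned one had been seen to give no paternal call. The planned count, groups less 1, gave 0 Hox tiles in all 4 fits against sperm and 42 in the gamete fit. Counted by leverage with a minimum of 0.1, the block gave 5, 0, 2 and 1 against sperm and 0 in the gamete fit. With a minimum of 0.5 it gave 0, 0, 0 and 0 and 0. No count is preferred, and the replicate numbers did not pair the libraries within a parent. The cause of these differences was not tested.

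Mean differences depended on the positions averaged. Over the 4 clusters, with tiles as the unit, WT mock minus sperm was 1.12 points, CKO mock minus sperm 1.05, CKO minus WT aphidicolin -0.15 (reversed), maternal CKO mock minus oocyte 0.39 (reversed), maternal CKO aphidicolin minus mock -0.405 and maternal CKO minus WT mock 1.03. Over positions in all 20 libraries, WT mock minus sperm was -1.26, WT aphidicolin minus mock 1.57, maternal WT aphidicolin minus mock -0.143 (reversed) and maternal CKO minus WT aphidicolin 0.991. Sperm minus oocyte was 2.95 with at least 10 reads, 1.82 weighted by reads, 3.42 with tiles and 0.942 over positions in all 20. By cluster, signs reversed over those positions for paternal WT mock minus sperm in HoxA (-0.588) and HoxD (-1.04), CKO mock minus sperm in HoxA (-0.0700) and HoxC (0.300), maternal WT aphidicolin minus mock in HoxB (-0.0301) and HoxC (-0.266), and sperm minus oocyte in HoxC (-1.62). They also reversed in HoxB for WT aphidicolin minus mock with at least 10 reads (-0.114) and CKO minus WT aphidicolin with tiles (-0.608). The cause was not tested.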
